A study of Mus musculus with 12 samples.

Results

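The comparison set the effect of losing Sirt6 in 21-day liver against its effect in 21-day spleen, gene by gene. Sirt6 encodes a sirtuin, an enzyme that removes acyl groups from histones at the cost of NAD, and null mice are runted, have little fat and low blood glucose, and die young. Each array read 2 RNAs at once, Sirt6 null tissue labelled with Cy5 and wild type tissue of the same organ labelled with Cy3, and the value deposited for a probe is the log2 ratio of the null over the wild type channel. A value of -1 therefore means that the knockout channel held 0.5 times the wild type signal, provided that the values are base 2 and red over green, as their range and the labelled dyes imply. For each gene the members of the comparison are the mean ratio of the 2 liver arrays (replicates 2 and 11) and that of the 2 spleen arrays (replicates 6 and 11), and their difference, liver minus spleen. A negative difference means that the knockout effect in liver lay below that in spleen. Of 14654 genes named on the array, 11231 had a value on all 4 arrays and make up the comparison, and 10300 unnamed probes were tested beside them.

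The knockout groups were liver and spleen of Sirt6 null pups aged 21 days. The wild type channel of all 4 arrays held RNA pooled from 3 wild type littermates. The labels give no strain, sex or targeted allele, and do not say whether arrays of a tissue shared a pool or whether each carried another knockout animal. The p-values therefore rest on array-to-array spread alone, part of which may be technical. Liver and spleen of 29 days, 2 arrays each, served as a separate reading of the same comparison; the sources used here do not say how their wild type RNA was made up. Ratios hold no levels, so the labelled organs could not be checked against their defining markers. No dyes were exchanged, and a probe's own dye preference cancels from the liver minus spleen difference only where it is the same in both organs.

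Liver is the main site of cholesterol and fatty acid synthesis, bile acid synthesis, drug metabolism and the secretion of plasma proteins and IGF1. Sterol synthesis is switched on by SREBP transcription factors when membrane cholesterol is low, and fatty acid synthesis by SREBP1c and insulin when food is plentiful. The spleen of a young mouse holds lymphocytes, macrophages that clear aged red cells and, unlike in adult humans, a sizeable population of dividing red cell precursors.

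The 4 arrays were not equally precise. The SD of the deposited ratios was 0.753 and 0.717 on the liver arrays, and 1.14 on replicate 6 and 0.757 on replicate 11 of spleen. Replicate 6 of spleen also lacked 10155 of 38784 probe values, against 661 to 2523 on the other 3 arrays, and 2614 of the genes left out lacked a value on it alone. The median absolute gap between the arrays of a tissue was 0.30 in liver and 0.65 in spleen, while the median size of the liver minus spleen difference was 0.38 over the 11231 genes. Over all probes the arrays of liver correlated with r = 0.34 and those of spleen with r = 0.12 (Pearson, across probes, which are not independent). Group variance factors were therefore estimated in the fit: the SD of a spleen value was 2.19 times, and that of a liver value 1.21 times, the geometric mean over the 6 groups of the series.

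With these factors limma called the liver minus spleen difference of 0 of 21531 features at an adjusted p under 0.05 (0%), and the lowest adjusted p was 0.222. At an unadjusted p under 0.05 there were 1198 features, which is 5.56% of those tested. When all arrays were given the same spread, 5 features were called higher in liver (0.0232%) and 9 lower (0.0418%), among them the named genes Aldh1a7, Hrc, Igf2, Mug1, Mug2 and Sult3a1. Leaving out 1 array gave 48 calls without either liver array, 57 without spleen replicate 6 and 261 without spleen replicate 11. A difference that misses the threshold is not shown to be absent, since the median standard error of a difference was 0.54. The accounts below therefore give the values of each array, and call a gene apart where both liver arrays lie on one side of both spleen arrays. Among the 11231 genes, 1843 had both liver arrays below both spleen arrays (16.4%) and 2292 had both above (20.4%). Tested against 0 within one organ, the liver ratio was called lower for 317 features (1.47%, 150 of them named genes) and higher for 33 (0.153%, 15 named). The spleen ratio was called for 0 (0%, with 1352 at an unadjusted p under 0.05). These counts depend on the settings: the liver total of 350 became 1047 without centring, and the spleen count became 683 with 1 spread for all arrays. Below, fell and rose name calls of the tests against 0, in which a probe's dye preference stays. Its part in these calls was not tested.

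Sirt6 itself was at -0.59 and -0.68 on the liver arrays, against -2.29 and -0.07 on the spleen arrays. The liver arrays lay between the spleen arrays, and the difference was 0.54 (SE 0.58, adjusted p = 0.982 by limma), or -0.57 without spleen replicate 6. Its 2 probes gave differences of 0.08 and 1.00, and no source used here places them inside or outside the deletion, so that Sirt6 does not check the genotype.

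The genes of smallest p below 0 were mostly liver enzymes and plasma proteins whose RNA was low in knockout liver. Mug2, a murinoglobulin (a plasma protease inhibitor made by liver), was at -2.25 and -2.12 in liver, against 1.55 and 0.49 in spleen, a difference of -3.21 (SE 0.45, adjusted p = 0.222). Mug1, its near-identical neighbour in sequence whose RNA the probes may share, was at -2.92 and -2.99 in liver, against -0.07 and -0.90 in spleen. Both liver arrays were low for both genes, and the spleen arrays disagreed in size. Sult3a1, a sulfotransferase of liver, was at -2.59 and -2.87 in liver, against 0.18 and -0.23 in spleen, a difference of -2.70 (SE 0.59, adjusted p = 0.824). Aldh1a7, an aldehyde dehydrogenase, was at -2.08 and -1.87 in liver, against 0.38 and -0.21 in spleen. These liver values were close to each other and the spleen values straddled 0.

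Keg1, a glycine acyltransferase-like gene, was at -2.29 and -2.35 in liver, against 2.26 and -0.43 in spleen. S100a10, the partner of annexin A2, was at -2.12 and -2.38 in liver, against 1.04 and -0.27 in spleen, and Rnf125, a ubiquitin ligase, at -1.75 and -1.11 in liver, against 1.61 and 0.24 in spleen. For these 3 genes replicate 6 of spleen was the high array and widened the difference. Both liver arrays lay below spleen replicate 11 as well. The liver ratio of all 7 genes, from Mug2 to Rnf125, was called lower against 0 (adjusted p = 0.0015 to 0.0206). Hrc, a calcium-binding protein of the muscle sarcoplasmic reticulum, differed in kind: it was at -0.22 and -0.11 in liver, against 3.08 and 2.21 in spleen, a difference of -2.81 (SE 0.44, adjusted p = 0.310), so that only the spleen ratios stood away from 0.

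On the other side, 7 of the 8 genes of smallest p lay further from 0 in knockout spleen than in knockout liver, and Rad51b was as far above 0 in liver as below it in spleen. Isl1, a homeobox transcription factor, was at -1.81 and -0.33 in liver, against -4.59 and -2.82 in spleen, a difference of 2.63 (SE 0.68, adjusted p = 0.878). Fgf23, the phosphate-regulating hormone, was at 0.04 and -0.47 in liver, against -3.57 and -1.81 in spleen, and Abca14, an ABC transporter, at -0.07 and -0.27 in liver, against -3.55 and -1.22 in spleen. Bcorl1, a corepressor, and Olfr420, an odorant receptor, had the same form, with liver values between -0.07 and 0.58 and spleen values between -2.46 and -0.86. At 29 days the differences of these 5 genes lay between -0.33 and 0.13. Il1r1, the interleukin 1 receptor, was at 0.50 and 0.54 in liver, against -1.40 and -0.72 in spleen, and Ctrb1, pancreatic chymotrypsinogen, at -0.57 and 0.03 in liver, against -2.05 and -1.82 in spleen. Rad51b, a recombination protein, was at 1.17 and 0.93 in liver, against -1.87 and -0.25 in spleen, with a 29-day difference of 1.25.

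**Figure D1:**
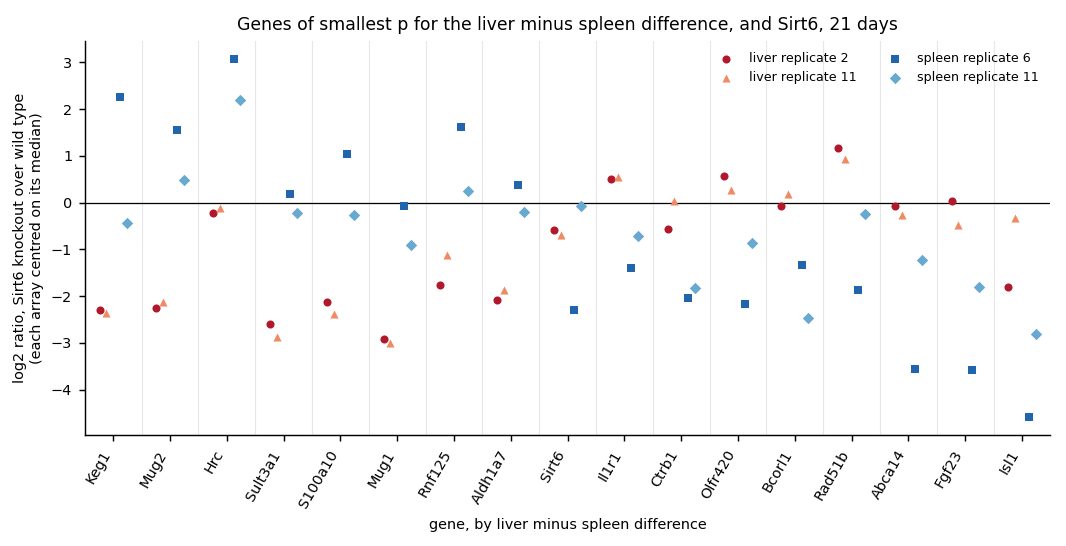
Log2 ratios of knockout over wild type on each 21-day array (vertical axis) for Sirt6 and the 16 genes with the smallest p for the liver minus spleen difference, 8 each way, ordered by that difference along the horizontal axis; red points are the 2 liver arrays and blue points the 2 spleen arrays. On the left the liver points are low and close together except for Hrc, and on the right the spleen points are low.

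Cholesterol synthesis was the pathway with the deepest knockout effect in liver relative to spleen among the lists described here. Of 14 measured genes of the list, 8 had both liver arrays below both spleen arrays (57.1%, against 16.4% of all genes) and 1 had both above. The median over the list was -1.19 and -1.87 on the liver arrays, against -0.65 and -0.28 on the spleen arrays, and the median difference was -0.98, against 0.03 over all 11231 genes. In liver 9 of the 14 fell by the test against 0, where 1.47% of all features did, and none rose. In spleen 0 were called, as for all features; with 1 spread for all arrays 683 features were called in spleen. The count in liver was 7 without liver replicate 2 and 3 without liver replicate 11. No member's difference between the organs passed the test.

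The promoters of 3 members called lower in liver are shown because their letters bear on this pathway: SREBP factors bind sterol regulatory elements beside NF-Y, which binds CCAAT boxes. Each runs from 250 bases before to 50 bases after the RefSeq start site (build GRCm38.p6), 5′ to 3′ on the gene's strand. Capitals mark the sterol element letters TCACNCCAC and the CCAAT box, each searched on both strands, so that ATTGG is a CCAAT box on the other strand; the motifs do not overlap in these windows.
Hmgcs1, chr13:119690101-119690400, plus strand: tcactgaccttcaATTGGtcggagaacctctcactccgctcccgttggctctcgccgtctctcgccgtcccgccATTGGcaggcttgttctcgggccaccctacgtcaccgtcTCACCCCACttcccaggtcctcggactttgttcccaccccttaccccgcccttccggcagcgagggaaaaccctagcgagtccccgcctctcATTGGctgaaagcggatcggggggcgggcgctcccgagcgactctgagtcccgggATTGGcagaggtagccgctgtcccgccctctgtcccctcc
Lss, chr10:76531355-76531654, plus strand: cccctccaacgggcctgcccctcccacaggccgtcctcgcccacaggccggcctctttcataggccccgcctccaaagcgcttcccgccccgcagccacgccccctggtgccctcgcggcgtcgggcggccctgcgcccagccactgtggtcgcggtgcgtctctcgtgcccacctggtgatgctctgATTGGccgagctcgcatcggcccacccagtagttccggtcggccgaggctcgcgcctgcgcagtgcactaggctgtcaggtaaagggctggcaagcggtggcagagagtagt
Mvk, chr5:114444019-114444318, plus strand: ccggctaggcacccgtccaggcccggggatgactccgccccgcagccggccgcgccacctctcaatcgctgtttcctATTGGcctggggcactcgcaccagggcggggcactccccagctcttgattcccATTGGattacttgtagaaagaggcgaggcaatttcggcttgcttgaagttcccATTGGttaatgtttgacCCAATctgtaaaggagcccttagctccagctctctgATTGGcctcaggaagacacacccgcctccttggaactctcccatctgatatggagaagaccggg
The promoter table held 11 of the 14 cholesterol synthesis genes, and 9070 of the 11231 genes in all. A CCAAT box was present in all 11, against 42.7% of the 9070 genes and 41.1% of 27025 genes in the table. The box therefore does not separate the members called lower in liver from the others. Ggps1, the member with liver above spleen, had 3, and Mvd and Ebp, not called in liver, had 2 each. A link of these letters to the liver values was not tested. The sterol element letters were present in Hmgcs1 alone (9.09%), against 1.49% of the 9070 and 1.44% of the 27025 genes. Of 12 fatty acid synthesis genes in the table, 8 had a CCAAT box and 0 the sterol element letters. A gene with several start sites counts where any of its windows holds the letters, and a match describes the sequence without showing a bound site.

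Along the pathway, early and late steps were both low in liver. Hmgcs1, which makes HMG-CoA, was at -2.56 and -2.73 in liver, against -1.06 and -0.24 in spleen, a difference of -2.00 (SE 0.52, adjusted p = 0.878). Mvk, mevalonate kinase, was at -1.19 and -1.85 in liver, against 0.11 and -0.26 in spleen, and Fdps, which makes farnesyl diphosphate, at -1.34 and -1.61 in liver, against -0.57 and -0.28 in spleen. In each of the 3 both liver arrays were low and the spleen arrays lay nearer to 0. Idi1, the isomerase between these steps, lacked a value on liver replicate 11 and so is not among the 11231 genes: it was at -4.10 on liver replicate 2, against 0.68 and -0.81 in spleen.

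Among the sterol ring enzymes, Msmo1 had the largest difference of the 14. Msmo1, a sterol C4 demethylase, was at -2.48 and -3.24 in liver, against -0.72 and -0.44 in spleen, a difference of -2.28 (SE 0.58, adjusted p = 0.878). Nsdhl, the dehydrogenase of the same C4 complex, was at -1.20 and -2.21 in liver, against 0.57 and 0.19 in spleen, a difference of -2.08 (SE 0.60). Cyp51, the C14 demethylase, was at -2.76 and -2.39 in liver, against -1.57 and -1.24 in spleen: it was low on all 4 arrays, and lower in liver. Lss, which closes the sterol ring, and Dhcr7, which makes cholesterol itself, were apart by smaller differences of -0.91 (SE 0.41) and -0.80 (SE 0.44).

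Not every member followed. Sqle, squalene epoxidase, was at -2.09 and -2.05 in liver, against -3.26 and -0.80 in spleen, so that the spleen arrays enclosed the liver arrays, and Hsd17b7 did likewise in part at -1.23 and -2.73 in liver, against -2.00 and -0.21 in spleen. Fdft1, squalene synthase, was above 0 on all 4 arrays, at 0.64 and 0.33 in liver, against 0.43 and 0.30 in spleen. Ggps1, which diverts the pathway to protein prenylation, was the 1 member with liver above spleen, at -0.06 and 0.03 in liver, against -1.29 and -0.28 in spleen. Against spleen replicate 11 alone, leaving out replicate 6, 11 of the 14 had both liver arrays lower and 3 higher, where 34.6% and 36.3% of all genes did, and the median difference was -1.27.

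Fatty acid synthesis showed the same order with smaller values. Of 13 measured genes 8 had both liver arrays below both spleen arrays (61.5%, against 16.4% of all genes) and 1 above (7.69%, against 20.4%). The medians were -0.75 and -0.98 on the liver arrays, against -0.07 and 0.09 on the spleen arrays, and the median difference was -0.89. In liver 3 of the 13 fell (Scd1, Acss2 and Acly), where 1.47% of all features were called lower, with 0 called without liver replicate 2 and 1 without liver replicate 11. Scd1, the stearoyl-CoA desaturase, was at -3.26 and -3.46 in liver, against -1.36 and 0.38 in spleen, a difference of -2.87 (SE 1.20, adjusted p = 0.888). Acss2, which makes cytosolic acetyl-CoA from acetate, was at -1.98 and -1.34 in liver, against 0.47 and 0.13 in spleen, and Acly, which makes it from citrate, at -1.33 and -1.17 in liver, against -0.69 and 0.42 in spleen. Me1, malic enzyme, and Elovl5, an elongase, had liver values from -1.26 to -0.86 and spleen values from -0.56 to 0.31. The liver arrays were low in all 5, while spleen values lay on both sides of 0 in 4 of them.

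Fads2, the delta-6 desaturase, was the exception above spleen, at 0.35 on both liver arrays (0.350 and 0.345), against -1.45 and -0.14 in spleen. Mid1ip1, an activator of acetyl-CoA carboxylase, had a difference of -1.88 that rested on 3.20 on replicate 6 of spleen, with -0.08 and -0.50 in liver, against -0.02 on spleen replicate 11. Fasn and Thrsp each lacked a value on 1 array: Fasn, fatty acid synthase, was at -1.02 on liver replicate 2, against 0.50 and 0.64 in spleen, and Thrsp, a lipogenic regulator, at -2.19 and -2.09 in liver, against 0.17 on spleen replicate 11.

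**Figure D2:**
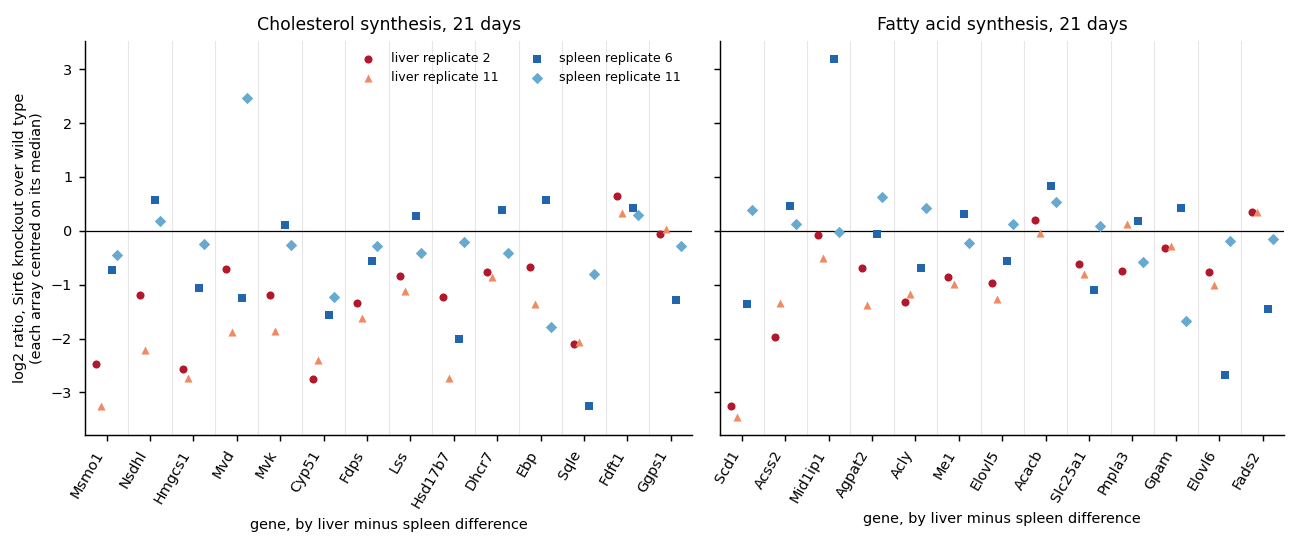
Log2 ratios of knockout over wild type on each 21-day array (vertical axis) for the 14 measured genes of cholesterol synthesis (left panel) and the 13 of fatty acid synthesis (right panel), ordered by the liver minus spleen difference; red points are liver arrays and blue points spleen arrays. In 8 genes of each panel both red points lie below both blue points, Msmo1 and Scd1 being the first of each panel.

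The regulators of these pathways did not move as a group. Of 11 measured genes that control sterol and lipid synthesis, 2 were apart below and 2 above (18.2% each way, against 16.4% and 20.4% of all genes), and the median difference was -0.12. Srebf1, which encodes SREBP1, was at -1.99 and -1.12 in liver, against 1.498 and -1.08 in spleen, and Insig1, which holds SREBP in the endoplasmic reticulum and is itself an SREBP target, at -1.43 and -1.88 in liver, against -1.22 and -0.37 in spleen. Both fell in liver by the test against 0 (adjusted p = 0.0392 and 0.0274). Insig2 was at 0.03 and -0.23 in liver, against -1.06 and -0.99 in spleen. Abcg5, a sterol exporter to bile, was at 1.59 and 0.82 in liver, against 0.11 and -1.11 in spleen. Abcg5 and Insig2 thus stood on the opposite side of spleen from most of the synthesis genes. The other ABC transporters of the list did not: Abcg8, at -0.03 and -1.28 in liver, against -1.238 and -1.225 in spleen, overlapped. So did Abca1 and Abcg1, with differences of -0.16 and -1.30.

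Among cytochrome P450 and bile acid genes, single members differed widely in opposite directions. Of 21 measured, 6 were apart below and 6 above (28.6% each way, against 16.4% and 20.4% of all genes), with a median difference of -0.07. Cyp2f2, a xenobiotic oxidase of liver and airway, was at -2.30 and -2.69 in liver, against 0.36 and -0.29 in spleen, a difference of -2.53 (SE 1.06, adjusted p = 0.888). Cyp3a41a was at -2.03 and -1.98 in liver, against 2.79 and -0.36 in spleen. Cyp7b1, the oxysterol hydroxylase of the alternative bile acid route, was at -0.98 and -1.00 in liver, against 0.41 and 0.49 in spleen, with close agreement within each organ. Cyp2d9 lay above spleen at 2.20 and 1.77 in liver, against 1.55 and 0.06 in spleen, and rose in liver against 0 (adjusted p = 0.00826). Cyp2e1, an ethanol-metabolising P450, was at 1.02 and -0.09 in liver, against -2.98 and -0.49 in spleen. P450 genes belong to families with close copies that an array probe may not separate.

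Phase II enzymes and transporters held 7 genes apart below (30.4%, against 16.4% of all genes) and 2 above (8.7%, against 20.4%) among 23 measured, with a median difference of -0.24. The widest was Aldh1a1, a retinaldehyde dehydrogenase, at -4.14 and -3.75 in liver, against 0.68 and 0.57 in spleen, a difference of -4.57 (SE 1.45, adjusted p = 0.878). The organs stood far apart for this gene, with both liver arrays low and both spleen arrays above 0. Ces3b, a liver carboxylesterase, was at -2.41 and -2.76 in liver, against -1.18 and -0.27 in spleen, and Ces1g, another, at -2.68 and -2.02 in liver, against -0.79 and 0.16 in spleen. Aldh1a1, Aldh1a7, Ces3b and Sult3a1 were the 4 members that fell in liver, where 1.47% of all features were called lower, and none rose.

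Igf2, Igfbp2 and Gpc3, which fetal liver makes in quantity, had both liver arrays above both spleen arrays. Igf2, the fetal growth factor that liver normally silences after birth, was at 4.48 and 3.84 in liver, against 1.21 and 1.27 in spleen, a difference of 2.92 (SE 0.84, adjusted p = 0.878). Its ratio was above 0 on all 4 arrays and higher in liver, where it rose by the test against 0 (adjusted p = 0.0025). Igfbp2, a fetal and fasting IGF-binding protein, was at 2.71 and 1.84 in liver, against 0.17 and 0.32 in spleen, and also rose in liver (adjusted p = 0.00718). Gpc3, a fetal liver proteoglycan, was at 2.39 and 1.75 in liver, against 0.41 and 0.59 in spleen. Afp, alpha-fetoprotein, lacked a value on replicate 6 of spleen: it was at 2.55 and 1.97 in liver, against 0.10 on spleen replicate 11. Of 12 measured fetal and imprinted growth genes, which leave out Igfbp2, 6 were apart above (50%, against 20.4% of all genes). Spink1 alone was apart below (8.33%, against 16.4%), with a difference of -0.97. The list medians were 0.24 and 0.33 on the liver arrays, against 0.08 and 0.36 on the spleen arrays, so spleen replicate 11 was not below liver. The median difference was 0.31. The list's median difference was -0.30 when arrays were centred on ribosomal and respiratory chain genes, where that of all genes was -0.57. That centring shifts every gene's difference by the same amount, so it cannot test the list's place among all genes.

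Genes of growth hormone action and of the circulating IGF complex did not move as a group. Igfals, the subunit that stabilises circulating IGF1, was at -1.72 and -0.92 in liver, against -0.32 and -0.16 in spleen, a difference of -1.08 (SE 0.50, adjusted p = 0.895), and fell in liver (adjusted p = 0.0263). Igf1 was at -0.49 and -1.08 in liver, against 0.07 and -0.08 in spleen. Over the 16 measured growth hormone and IGF genes, 4 were apart below (25%) and 3 above (18.8%), against 16.4% and 20.4% of all genes, and the median difference was -0.04.

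Several hepatocyte genes were lower relative to wild type in knockout spleen than in knockout liver. Of 14 measured, 7 were apart above (50%, against 20.4% of all genes) and 1 below (7.14%, against 16.4%), with a median difference of 0.33. It was -0.27 when arrays were centred on ribosomal and respiratory chain genes, where the median of all genes was -0.57. All genes shift alike under that centring, so it cannot test the list's place among them. Apoa1, the main HDL apolipoprotein, was at 1.51 and 0.88 in liver, against -2.11 and -0.98 in spleen, a difference of 2.74 (SE 0.75, adjusted p = 0.878). Albumin (Alb) was at 0.10 and -0.57 in liver, against -2.65 and -1.23 in spleen. Both spleen arrays were well below 0 for these abundant liver messages. The exception was Fabp1, the liver fatty acid-binding protein, at -2.23 and -1.76 in liver, against -0.28 and 0.31 in spleen, which fell in liver (adjusted p = 0.0385). Acute phase and metallothionein genes had 9 apart above (52.9%, against 20.4% of all genes) and 1 below (5.88%, against 16.4%) of 17 measured, with a median difference of 0.65. Il1rn, the interleukin 1 receptor antagonist, was at 1.91 and 1.74 in liver, against 0.13 and 0.53 in spleen, and Mt1, a metallothionein, at 1.60 and 0.97 in liver, against -0.57 and 0.54 in spleen.

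The spleen carried the difference for genes of red cells. Of 16 measured, 10 had both liver arrays above both spleen arrays (62.5%, against 20.4% of all genes) and 0 below. The medians were -0.16 and -0.28 on the liver arrays, against -1.41 and -1.30 on the spleen arrays, and the median difference was 0.84. Rhd, a Rhesus membrane protein, was at 0.41 and 0.25 in liver, against -1.62 and -3.60 in spleen, a difference of 2.94 (SE 1.09, adjusted p = 0.888). Car2, a red cell carbonic anhydrase, was at 0.24 on both liver arrays (0.239 and 0.236), against -1.95 and -2.76 in spleen. Kel, a blood group peptidase, was at -0.14 and -0.06 in liver, against -1.60 and -2.96 in spleen, and Cldn13, a claudin of mouse erythroblasts, at -0.47 and -0.37 in liver, against -1.93 and -3.26 in spleen. In all 4 the liver arrays lay close together and the spleen arrays were both low, replicate 11 more so.

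Genes of earlier and later steps gave the same side with smaller values. Gata1, the erythroid master transcription factor, was at -0.13 and -0.40 in liver, against -1.27 and -1.13 in spleen. Alas2 and Fech, the first and last enzymes of haem synthesis, were at 0.63 and 0.49 (Alas2) and 0.46 and -0.27 (Fech) in liver, against -0.87 and -1.47 (Alas2) and -1.25 and -1.93 (Fech) in spleen. In whole tissue, fewer cells of a type and less RNA per cell cannot be told apart. Against spleen replicate 11 alone, 13 of the 16 had both liver arrays higher and 1 lower, where 36.3% and 34.6% of all genes did. The median difference was then 0.96.

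Cell cycle genes were mixed, and none was called in either organ. Of 31 measured, 16 were apart above (51.6%, against 20.4% of all genes) and 3 below (9.68%, against 16.4%), and the medians were -0.38 and -0.53 on the liver arrays, against -1.36 and -0.93 on the spleen arrays. The median difference was 0.49, and -0.11 when arrays were centred on ribosomal and respiratory chain genes, where that of all genes was -0.57. All genes shift alike under that centring, so it cannot test the list's place among them. Ccne2, cyclin E2, was at -0.36 and -0.39 in liver, against -2.56 and -2.52 in spleen, a difference of 2.16 (SE 1.58, adjusted p = 0.982). Cdc6, a replication licensing factor, was at -0.04 and -0.26 in liver, against -1.48 and -1.44 in spleen, and Mcm2, a subunit of the replicative helicase, at -0.16 and -0.79 in liver, against -1.81 and -1.38 in spleen. Other helicase subunits went the other way: Mcm6 and Mcm7 had liver values from -1.38 to -1.22 and spleen values from -0.91 to 0.20.

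Genes of exocrine pancreas, an organ that neither label names, gave the largest median among the lists, 1.18. Of 13 measured, 10 were apart above (76.9%, against 20.4% of all genes) and 1 below (7.69%, against 16.4%). Their medians were -0.14 on both liver arrays (-0.138 and -0.139), against -0.99 and -0.91 on the spleen arrays. Cel, bile salt lipase, was at -0.19 and -0.54 in liver, against -3.11 and -1.80 in spleen, a difference of 2.09 (SE 0.61, adjusted p = 0.878). Cela3b, an elastase, was at -0.49 and -0.45 in liver, against -1.60 and -2.52 in spleen, and Clps, colipase, at -0.14 and -0.01 in liver, against -1.42 and -1.68 in spleen. Cela1, another elastase, was the member apart below, at -1.38 and -1.65 in liver, against -1.02 and -0.19 in spleen. It fell in liver by the limma test against 0 (adjusted p = 0.0246), and its 29-day difference was -2.17. Pancreas lies against the spleen in the body, and at 29 days the list had the opposite median difference, -0.68. Its part in the other spleen values was not tested.

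**Figure D3:**
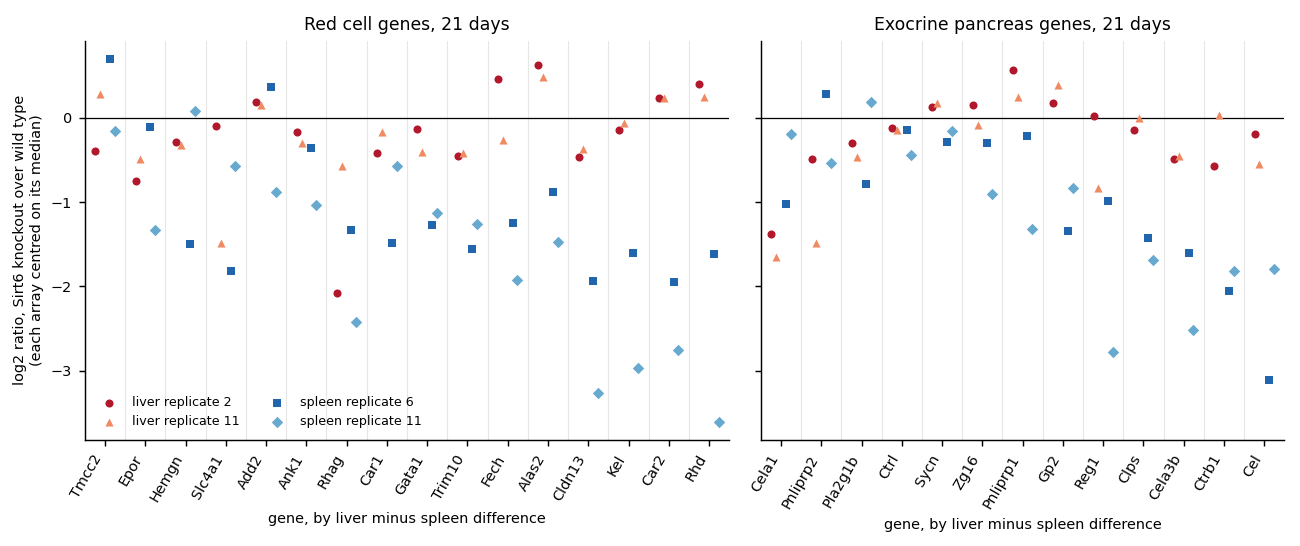
Log2 ratios of knockout over wild type on each 21-day array (vertical axis) for the 16 measured red cell genes (left panel) and the 13 exocrine pancreas genes (right panel), ordered by the liver minus spleen difference; red points are liver arrays and blue points spleen arrays. Most red points lie near 0, and in 10 genes of each panel both blue points lie below both red points.

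Genes of the other spleen cells gave mixed counts, to be read against 16.4% of all genes apart below and 20.4% above. Of 13 measured T cell genes 5 were apart below (38.5%) and 0 above, with medians of -0.24 and -0.13 on the liver arrays, against -0.18 and 0.43 on the spleen arrays. Cd3e, a chain of the T cell receptor complex, was at -3.12 and -0.58 in liver, against 0.74 and 0.47 in spleen. Of 11 B cell genes 1 was apart below (9.09%) and 4 above (36.4%). Neutrophil granule genes split the spleen arrays, with medians of -0.10 and 0.16 on the liver arrays, against -0.47 on replicate 6 and 1.22 on replicate 11 of spleen. Of 11 measured, 5 were apart below (45.5%) and 2 above (18.2%), and the median difference of -0.25 became 0.39 without spleen replicate 11. S100a9 did not follow the list on spleen replicate 6, where the list median was -0.47. It was at 0.38 and 0.67 in liver, against 3.35 on replicate 6 and 1.66 on replicate 11 of spleen. Of 11 macrophage genes 2 were apart below (18.2%) and 4 above (36.4%), and the difference of these lists from the red cell genes was not tested.

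Housekeeping machinery was lower on replicate 6 of spleen than on the other arrays. The 51 measured genes of cytosolic ribosomal proteins had medians of 0.35 and 0.00 on the liver arrays, against -0.74 and -0.02 on the spleen arrays, and 39 respiratory chain genes had 0.06 and -0.26 in liver, against -1.14 and -0.24 in spleen. Their median differences of 0.48 and 0.61 were 0.16 and 0.24 without that array. Centring the arrays on these genes brings their medians near 0 by construction, so the -0.12 and 0.01 obtained there test nothing. The median of all genes was -0.57 with that centring. Of 673 odorant, vomeronasal and taste receptor genes, which neither organ uses, 138 were apart below (20.5%, against 16.4% of all genes). Another 58 were apart above (8.62%, against 20.4%), and the median difference was -0.17. They also made up 19 of the 150 named genes called lower in liver (12.7%, against 5.98% of the 11231 genes).

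**Figure D4:**
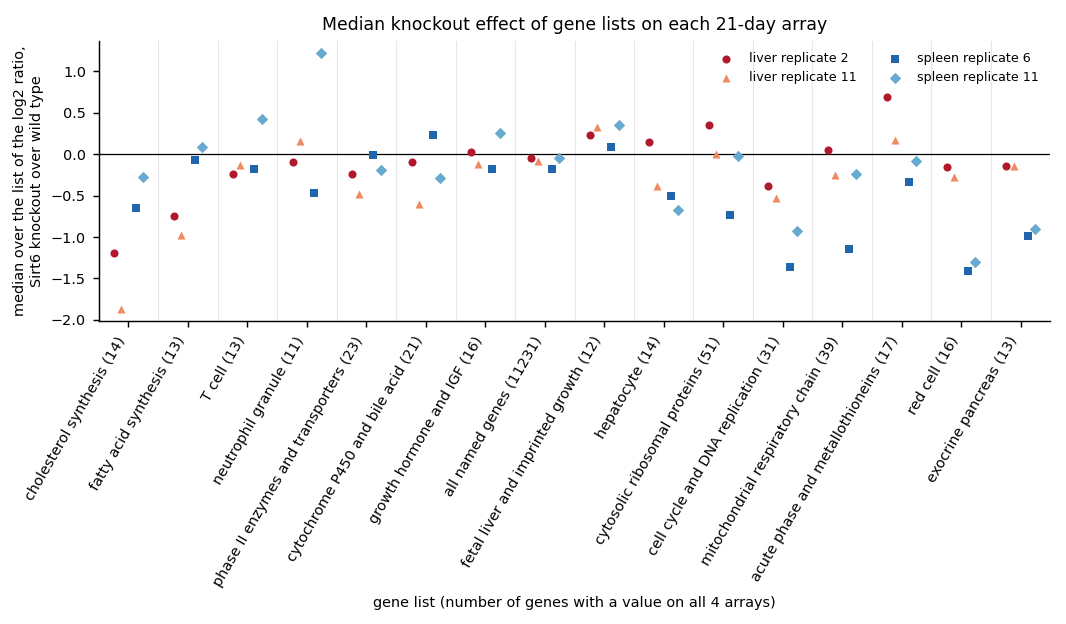
Median over each gene list of the log2 ratio of knockout over wild type on each 21-day array (vertical axis), for 15 lists and all 11231 named genes, ordered by the median liver minus spleen difference; the number of genes is in brackets, red points are liver arrays and blue points spleen arrays. Cholesterol and fatty acid synthesis stand at the left with low liver medians, and red cell and exocrine pancreas genes at the right with low spleen medians.

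The genes called in liver were also read in spleen. Of the 150 named genes called lower in liver, 85 were also below 0 on both spleen arrays, 17 were above 0 on both, and 48 were mixed. Over all 11231 genes, 6050 had both spleen arrays on the same side of 0, counting either side. The 6050 were not split by side, so the counts by side given here have no background share. They do not show whether spleen followed liver. The median ratio of the 150 was -1.62 in liver, against -0.51 in spleen, and 103 of them were apart below, where 16.4% of all genes were. Of the 15 called higher, 12 were above 0 on both spleen arrays, with a median of 1.60 in liver, against 0.62 in spleen. These genes were chosen by their liver values, so a smaller spleen value is partly a result of that choice and is given as a description.

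Genes apart by a wide margin were counted by the organ whose mean stood away from 0. Among genes apart by at least 1 on the log2 scale, 540 were lower in liver (4.81% of the 11231) and 492 higher (4.38%). Of the 540, the liver mean was at or below -0.5 with spleen within 0.5 of 0 in 168, the spleen mean was at or above 0.5 with liver within 0.5 of 0 in 194, and the organs were at least 0.5 from 0 on opposite sides in 158. Of the 492, only the liver was away from 0 in 54, only the spleen in 344, and both on opposite sides in 61. In both directions the count for spleen alone exceeded that for liver alone. These genes were chosen by the difference itself, and spleen values had the larger SD factor (1.21 for liver, against 2.19 for spleen). The split is therefore a description, and the part of the unequal spread in it was not tested.

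At 29 days limma called the liver minus spleen difference of 4 of 30742 features (0.013%), and of 12 without liver replicate 2, 2 without spleen replicate 1, 0 without spleen replicate 2 and 0 with the replicate number as a block. The 1 named gene was Sult3a1, at -3.81 and -3.65 in liver, against -0.02 and 0.65 in spleen, a difference of -4.04 (SE 0.38, adjusted p = 0.0174), on the side that it had at 21 days. The change of the difference between the ages was called for 0 of 21448 features (0%, with 604 at an unadjusted p under 0.05). The 21-day and 29-day arrays differ in age and in array set, and these cannot be told apart.

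The 29-day arrays gave a reading of the 21-day pattern in other arrays. Of the 540 genes apart below by at least 1 at 21 days, 290 had a 29-day difference below 0 (53.7%, against 39.2% of all genes), and 29 had one of -1 or less (5.37%, against 0.481%). Of the 492 apart above, 84.9% of the 491 measured at 29 days had a difference above 0 there, against 60.6% of all genes, and 14.3% one of 1 or more, against 1.51%. Of all 11223 genes with values at both ages, 994 were apart below at 29 days and 1410 above, with a median difference of 0.07. Cholesterol synthesis had a 29-day median difference of -0.62, with 10 of 14 genes apart below and 0 above, and fatty acid synthesis one of -0.58. Red cell genes had 0.72 and cell cycle genes 0.65 at 29 days, but 0 and 1 of their genes were apart above there. The spleen arrays of 29 days differed widely there, with red cell medians of 0.01 and 0.05 in liver, against 0.52 and -2.56 in spleen. Hepatocyte genes had 1.21, with 12 of 14 apart above. T cell genes changed sides, from a median difference of -0.34 at 21 days to 0.34 at 29 days. At 29 days 10 of the 13 T cell genes were apart above and 0 below. Neutrophil genes went from -0.25 to 0.54, with 0 apart either way at 29 days. B cell genes had 0.88, with all 11 apart above.

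Genes apart by at least 1 at both ages numbered 28 below and 42 above; the following were chosen from them after their values were seen. Below were Keg1, Sult3a1, Cyp2f2, Cyp7b1, Mug1, Mug2, Aldh1a7, Ces3b and Igfals, with the synthesis genes Hmgcs1, Msmo1, Cyp51, Acss2 and Acly. The 29-day differences of Msmo1 and Hmgcs1 were -2.14 and -1.91, beside -2.28 and -2.00 at 21 days. Above were Igf2, Igfbp2, Gpc3, Il1rn, Mt1, Mt2, Apoa1, Alb, Cyp2e1 and Rad51b. Igf2 had a 29-day difference of 2.09 and Apoa1 one of 2.44. Apart from Sult3a1, none of these passed the test at either age.

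**Figure D5:**
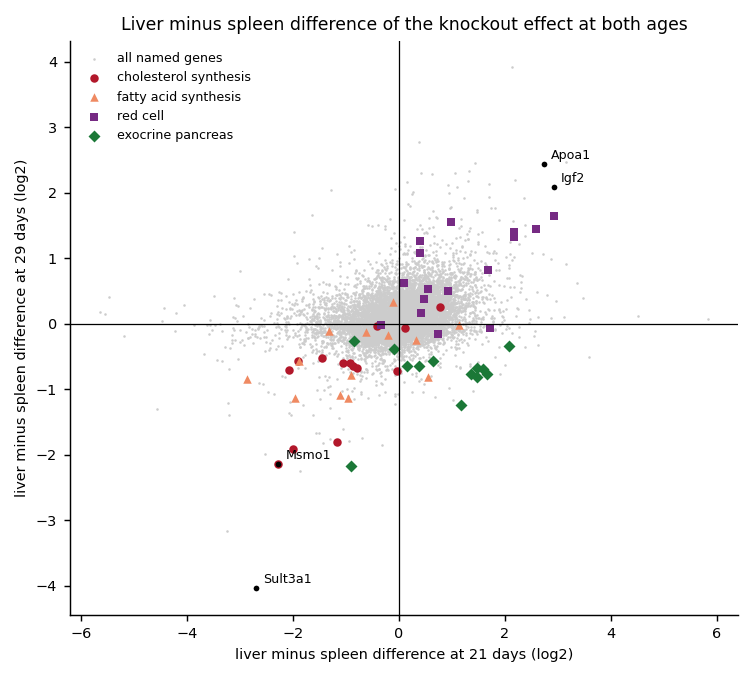
Liver minus spleen difference of the log2 knockout over wild type ratio at 21 days (horizontal axis) and at 29 days (vertical axis) for the named genes with values at both ages (grey), with 4 gene lists in colour and 4 genes labelled. Cholesterol synthesis genes lie mostly at the lower left, red cell genes at the upper right, and most exocrine pancreas genes at the lower right, where the sides differ between ages.

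Y-linked genes differed between the organs as well. Eif2s3y, the Y copy of a translation initiation factor subunit, was at -2.87 and -2.98 in liver, against -8.00 and -5.04 in spleen. Uty, a Y-linked demethylase gene, was at -3.97 and -0.32 in liver, against 0.77 and 0.87 in spleen. Kdm5d and Usp9y, also Y-linked, lacked values on some arrays. Kdm5d was at -3.40 on liver replicate 11, against 0.10 and -2.05 in spleen. Usp9y was at -2.875 on liver replicate 11, against -4.26 on spleen replicate 11. Eif2s3y and Uty put the organs in opposite order. The sources used here give no sex for either channel, so sex and genotype cannot be told apart in the values above.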

How the data were processed

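RNA of Sirt6 null and wild type mouse tissue was compared on 12 arrays of 2 colours, 2 per tissue and age, the knockout sample carrying Cy5 and the wild type sample Cy3 per the labels. The authors deposited 1 log2 ratio per probe for 38784 probes. Base 2 and knockout over wild type were inferred from the values and dyes, and no source used here gives the spot filter, background correction or normalization. GEO's platform annotation gave 1 gene symbol for 22204 probes, several for 0 and none for 16580. All 22204 were updated by gene ID (GRCm38.p6), giving 14654 genes. Each array was centred on its median and probes of a gene were averaged (4662 of the 11231 genes had several).

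All 12 arrays were fitted with limma 3.58.1 in R 4.3.3, with 1 mean and 1 variance factor (arrayWeights) per tissue and age, in place of a spread common to all. Tests were two-sided moderated tests with Benjamini-Hochberg adjustment over all features with values on the arrays compared, at 0.05, and the code was tested on simulated data. Adjusted p-values in the report come from these fits. Named genes were Sirt6, the 8 of smallest p each way since none was called, the genes called at 29 days, and members of the gene lists. The comparison, lists and tests were chosen with earlier results of these data known. The 21-day liver and spleen arrays share only the replicate number 11, and their deviations from the group means correlated with r = -0.03 over features. The 29-day liver and spleen arrays share numbers 1 and 2, with r = 0.41, but no label ties a number to an animal and there are only 2 pairs, so neither age was paired, and the report gives the 29-day count with the block beside the unpaired one. Replicate 2 of 21-day liver has no number in the labels. The array signal behind each ratio is not in the table used here, and the number of arrays limits the precision.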

Additional observations from a re-analysis of the deposited data

Results flagged for a closer look

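At 29 days the test of the liver minus spleen difference called 4 features in the main fit. It called 0 with the replicate number as a block and 0 with ribosomal and respiratory chain centring. Sult3a1 had a difference of -4.04, with -3.81 and -3.65 in liver, against -0.02 and 0.65 in spleen. The other 3 are probes without a gene name here, numbered 37174, 3292 and 31463 in the table, with differences of -2.59, 3.29 and -3.21 (adjusted p = 0.0399, 0.0399 and 0.0478 by limma).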

How the results depend on the processing

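The 21-day difference was called for 0 features, and for 14 with 1 spread for all arrays, 2 with arrays scaled to one spread, 17 when 1 array per tissue was enough and 53 with the replicate block, where it rests on replicate 11 of both organs. It was called for 48 to 261 without 1 array, with 57 without spleen replicate 6, 261 without spleen replicate 11, and 48 without either liver array. Each such fit leaves an organ with 1 array, assumed to vary like the others. The other 11 settings called 0 features. The sign for Sirt6 turned with arrays centred on ribosomal and respiratory chain genes (-0.061), scaling (-0.003), the replicate block (-0.61) and without spleen replicate 6 (-0.57), while it was 1.65 without spleen replicate 11.

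At 29 days the count of 4 became 11 with the 29-day arrays alone, 0 with ribosomal and respiratory chain centring, 32 with scaling, 28 with quantile normalization, 0 with the replicate block, and 0 to 12 without 1 array (12 without liver replicate 2, 2 without spleen replicate 1, 0 without spleen replicate 2).

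The settings for single organs and for the change between ages were chosen after seeing the data. In 21-day liver the 350 calls became 1047 without centring, 585 with ribosomal and respiratory chain centring, and 536 to 594 without 1 array. In 21-day spleen the 0 calls became 683 with 1 spread, 6 with scaling, 3 with quantile normalization, and 62 to 343 without 1 array. The change between ages had 0 to 184 calls without 1 array, the highest without spleen replicate 11. The cholesterol synthesis genes called lower in liver numbered 7 without liver replicate 2 and 3 without liver replicate 11, and those of fatty acid synthesis 0 and 1. The median of all genes shifted by -0.22 without centring and by -0.60 with ribosomal and respiratory chain centring. The cause of these changes was not tested.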

Other observations

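Genes of the body clock did not move as a group between the organs. Of 16 measured, 4 had both liver arrays below both spleen arrays (25%, against 16.4% of all genes) and 5 above (31.2%, against 20.4%), with a median difference of 0.08. Dbp, a clock-controlled transcription factor, was at 0.97 and 1.31 in liver, against -0.63 and 0.95 in spleen, and rose in liver against 0 (adjusted p = 0.039 by limma). Usp2, a clock-controlled deubiquitinase, was at 1.20 and 0.43 in liver, against -1.56 and -0.42 in spleen. Nr1d1, the clock repressor REV-ERB alpha, was at 0.36 and 0.22 in liver, against 2.27 and 0.53 in spleen.

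Platelet precursor genes depended on which spleen array was read. Of 9 measured, 1 was apart below (11.1%, against 16.4% of all genes) and 0 above (against 20.4%) at 21 days, with a median difference of 0.12. Against spleen replicate 11 alone 7 were below (77.8%, against 34.6% of all genes) and 0 above (against 36.3%), with a median of -0.44. At 29 days the median was 1.24 and all 9 were apart above, where 1410 of 11223 genes in all were.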
